A study of Mus musculus with 22 samples.

Results

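Sterol synthesis genes and their regulator Srebf2 were followed across 22 expression arrays of mouse aortic intima. The set was chosen by name and holds 8 genes, namely Srebf2, Hmgcs1, Idi1, Fdft1, Sqle, Cyp51, Hsd17b7 and Insig1. Probe sets were assigned by the platform annotation, and where a gene had several, the brightest on average across the 22 arrays stood for it. Of the 8 genes, 6 had a named probe set, out of 11807 genes measured in all, while Hmgcs1 and Insig1 were not analysed here. The 6 measured genes carried 11 probe sets.

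All mice were C57BL/6 on a chow diet, and the intima was scraped from the opened aorta. Aortas of wild-type mice were kept for 4 h at culture temperature in DMEM with 1% serum, with lipopolysaccharide (LPS, a bacterial cell wall component, 4 ng/mL, n = 3), with oxidised low-density lipoprotein (oxLDL, 50 µg/mL, n = 3), with the oxidised phospholipid oxPAPC (50 µg/mL, n = 3), or without addition (medium, n = 3). Fresh intima came from 4-week-old ApoE-/- mice, labelled as hyperlipidemic before lesions form (n = 4), and from 4-week-old wild-type mice (n = 6). An age is given for the fresh groups and not for the incubated ones. The ApoE deletion is in every cell of the mouse, so raised plasma lipids and the loss of Apoe in the vessel wall cannot be told apart. The number of animals behind an array is not stated, so all p-values measure only the spread between these arrays, which may be technical.

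Cholesterol is built from acetyl units through mevalonate, isoprenoids and squalene to lanosterol, which further enzymes trim to the finished sterol. SREBP2, the product of Srebf2, is a transcription factor held in the endoplasmic reticulum by Scap and the Insig proteins while membrane sterol is plentiful. When sterol runs low it is moved to the Golgi, cut by proteases that include the product of Mbtps1, and its freed part induces the enzymes of the pathway, the LDL receptor and Srebf2 itself. In endothelial cells the same circuit sets how much cholesterol is made and how much lipoprotein is taken up.

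Promoters are shown because SREBP2 acts at short sterol regulatory elements near the transcription start. The windows hold the 250 bases before the RefSeq start (GRCm38.p6) of 4 measured genes, on the gene's own strand, and capitals mark matches on either strand to TCACNNCA, a relaxed sterol element core, and to CCAAT, the box bound by NF-Y.
Srebf2 (chr15:82147019-82147268, plus strand): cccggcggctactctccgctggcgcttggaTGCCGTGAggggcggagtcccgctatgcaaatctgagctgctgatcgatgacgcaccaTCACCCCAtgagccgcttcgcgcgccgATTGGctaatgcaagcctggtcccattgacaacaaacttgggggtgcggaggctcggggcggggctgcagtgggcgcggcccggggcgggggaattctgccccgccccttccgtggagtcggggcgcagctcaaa
Idi1 (chr13:8885356-8885605, plus strand): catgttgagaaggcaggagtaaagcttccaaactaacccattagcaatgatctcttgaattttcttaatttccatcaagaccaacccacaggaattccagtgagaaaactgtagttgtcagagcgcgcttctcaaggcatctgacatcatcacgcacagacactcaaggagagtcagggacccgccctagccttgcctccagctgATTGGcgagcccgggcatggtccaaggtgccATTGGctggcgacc
Cyp51 (chr5:4104698-4104947, minus strand): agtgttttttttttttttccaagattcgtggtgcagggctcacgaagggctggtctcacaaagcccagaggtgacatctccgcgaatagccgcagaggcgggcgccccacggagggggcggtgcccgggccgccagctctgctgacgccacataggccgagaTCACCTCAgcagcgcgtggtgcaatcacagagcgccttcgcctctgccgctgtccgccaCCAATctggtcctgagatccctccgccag
Hsd17b7 (chr1:169969206-169969455, minus strand): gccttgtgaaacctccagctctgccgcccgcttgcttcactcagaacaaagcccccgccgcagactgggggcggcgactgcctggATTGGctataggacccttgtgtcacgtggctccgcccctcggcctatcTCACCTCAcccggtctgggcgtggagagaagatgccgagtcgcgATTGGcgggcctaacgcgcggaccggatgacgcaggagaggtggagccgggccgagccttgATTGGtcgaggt
RefSeq windows were matched for 6 of the 8 genes by symbol, not for Fdft1 and Sqle. The core TCACNCCA was present in 2 of the 6 windows (Srebf2 and Hmgcs1), beside 3.67% of all 32851 promoter windows of the same length. The relaxed core TCACNNCA, which includes every match of the stricter one, was present in 4 of the 6 (Srebf2, Hmgcs1, Cyp51 and Hsd17b7), beside 11.4% of all windows. It began 162 bases before the start of Srebf2, with a further match on the opposite strand at 220 bases, and at 88 bases in Cyp51 and 117 bases in Hsd17b7. CCAAT was present in 6 of 6 windows, beside 33.8% of all windows, and the GC box GGGCGG in 6 of 6, beside 32.7%. The Idi1 window held 2 CCAAT boxes, 14 and 45 bases before the start, and neither sterol element core in these letters. These matches describe the letters of the windows and say nothing of binding.

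Of 16 endothelial markers 15 averaged above the 40th percentile of the arrays. Pecam1, an endothelial adhesion molecule, had the highest mean of them (11.4 on the log2 scale), and Robo4, the lowest, averaged 3.16. Markers of smooth muscle, which lies beneath the endothelium, were also high on every array, and their mean over 13 genes ran from 8.88 to 9.26 with LPS, 8.69 to 9.14 with oxLDL, 9.07 to 9.48 with oxPAPC, 7.87 to 8.81 in medium, 9.69 to 9.86 in fresh ApoE-/- intima and 8.99 to 9.86 in fresh wild-type intima. Fibroblast markers (Col3a1 highest at 10.6) ran from 7.20 to 7.26 with oxPAPC, 7.08 to 7.77 in medium and 8.17 to 8.60 in fresh wild-type intima, and red cell and platelet markers (Hba-a1 highest at 10.1) from 5.90 to 7.16, 7.28 to 7.78 and 7.29 to 8.51 in the same groups. All 5 measured adipocyte markers averaged below the 40th percentile. Within groups, arrays correlated at 0.977 to 0.991 across genes and no pair was identical. Apoe itself measured 3.04 to 3.23 in ApoE-/- intima, against 3.78 to 4.35 in fresh wild-type intima, all below the 40th percentile.

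Levels are deposited log2 RMA signals, in which a step of 1 is a doubling, and the 40th percentile, used as a floor for dim signals, lay between 4.58 and 4.71. Srebf2 (probe set 1426744_at), the transcription factor gene, measured 5.37, 4.88 and 6.43 with LPS, 4.29, 4.22 and 4.84 with oxLDL, 5.45, 5.72 and 5.74 with oxPAPC, and 5.23, 6.04 and 5.51 in medium. In fresh intima it measured 5.08, 5.25, 5.19 and 5.56 in ApoE-/- mice, against 5.12 (lowest), 5.54 (median) and 6.07 (highest) in wild-type mice. The oxLDL arrays were below every array of every other group, and the 5 other groups overlapped, neighbour with neighbour, in the order of their means, the lowest being ApoE-/- at 5.27 ± 0.20 (SD, n = 4) and the highest oxPAPC at 5.64 ± 0.16 (SD, n = 3).

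Idi1 (1423804_a_at) encodes the isomerase that readies isoprenoid units for chain building. It measured 7.08, 7.52 and 8.49 with LPS, 8.48, 7.68 and 8.12 with oxLDL, 9.60, 9.20 and 9.15 with oxPAPC, and 7.83, 7.65 and 7.69 in medium. Fresh ApoE-/- intima gave 6.79, 6.92, 7.10 and 6.75, against 7.37 (lowest), 7.56 (median) and 7.76 (highest) in fresh wild-type intima. The oxPAPC arrays were above all others, and the ApoE-/- arrays were below all fresh wild-type ones. Fresh wild-type, LPS, medium and oxLDL arrays, in rising order of their means, overlapped from neighbour to neighbour.

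Fdft1 (1448130_at), squalene synthase, makes the first dedicated step to sterols and was close to the 40th percentile. It measured 4.60, 4.34 and 5.06 with LPS, 4.74, 4.66 and 4.07 with oxLDL, 5.28, 4.79 and 5.15 with oxPAPC, and 4.82, 4.79 and 4.67 in medium. In fresh intima the values were 3.78, 4.71, 4.19 and 4.21 in ApoE-/- mice, against 4.25 (lowest), 4.54 (median) and 5.29 (highest) in wild-type mice. Neighbouring groups overlapped throughout the order of means, the lowest being ApoE-/- at 4.22 ± 0.38 (SD, n = 4) and the highest oxPAPC at 5.07 ± 0.26 (SD, n = 3).

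Sqle (1415993_at) encodes squalene epoxidase, a rate-limiting oxygenase of the pathway. It measured 5.13, 5.02 and 5.99 with LPS, 5.41, 4.63 and 4.41 with oxLDL, 7.08, 7.05 and 6.36 with oxPAPC, and 5.22, 4.90 and 4.79 in medium. In fresh intima it measured 4.12, 3.94, 3.35 and 3.88 in ApoE-/- mice, against 3.81 (lowest), 4.31 (median) and 4.44 (highest) in wild-type mice. All 10 fresh arrays lay below the 40th percentile, and the 3 oxPAPC arrays lay above every other array.

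Cyp51 (1450646_at), the cytochrome that demethylates lanosterol, measured 6.99, 7.40 and 7.38 with LPS, 7.55, 7.16 and 6.35 with oxLDL, 8.25, 8.16 and 7.98 with oxPAPC, and 7.34, 7.72 and 6.73 in medium. Fresh intima gave 6.82, 6.26, 5.70 and 6.04 in ApoE-/- mice, against 5.57 (lowest), 6.09 (median) and 6.38 (highest) in wild-type mice. The oxPAPC arrays again stood above all others, and the remaining neighbours in the order of means overlapped.

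Hsd17b7 (1448865_at), a reductase that acts on keto groups of sterol intermediates, measured 6.49, 6.49 and 6.88 with LPS, 6.44, 6.23 and 5.97 with oxLDL, 7.61, 7.29 and 7.12 with oxPAPC, and 6.28, 5.59 and 6.16 in medium. Fresh intima gave 5.09, 5.10, 5.38 and 5.19 in ApoE-/- mice, against 5.11 (lowest), 5.22 (median) and 5.59 (highest) in wild-type mice. The order of means had a step without overlap between fresh wild type and medium, between oxLDL and LPS, and between LPS and oxPAPC. The first step was bare, with 5.588 as the highest fresh wild-type value and 5.594 as the lowest medium one. The plot of log2 signal by array shows these values.

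**Figure D1:**
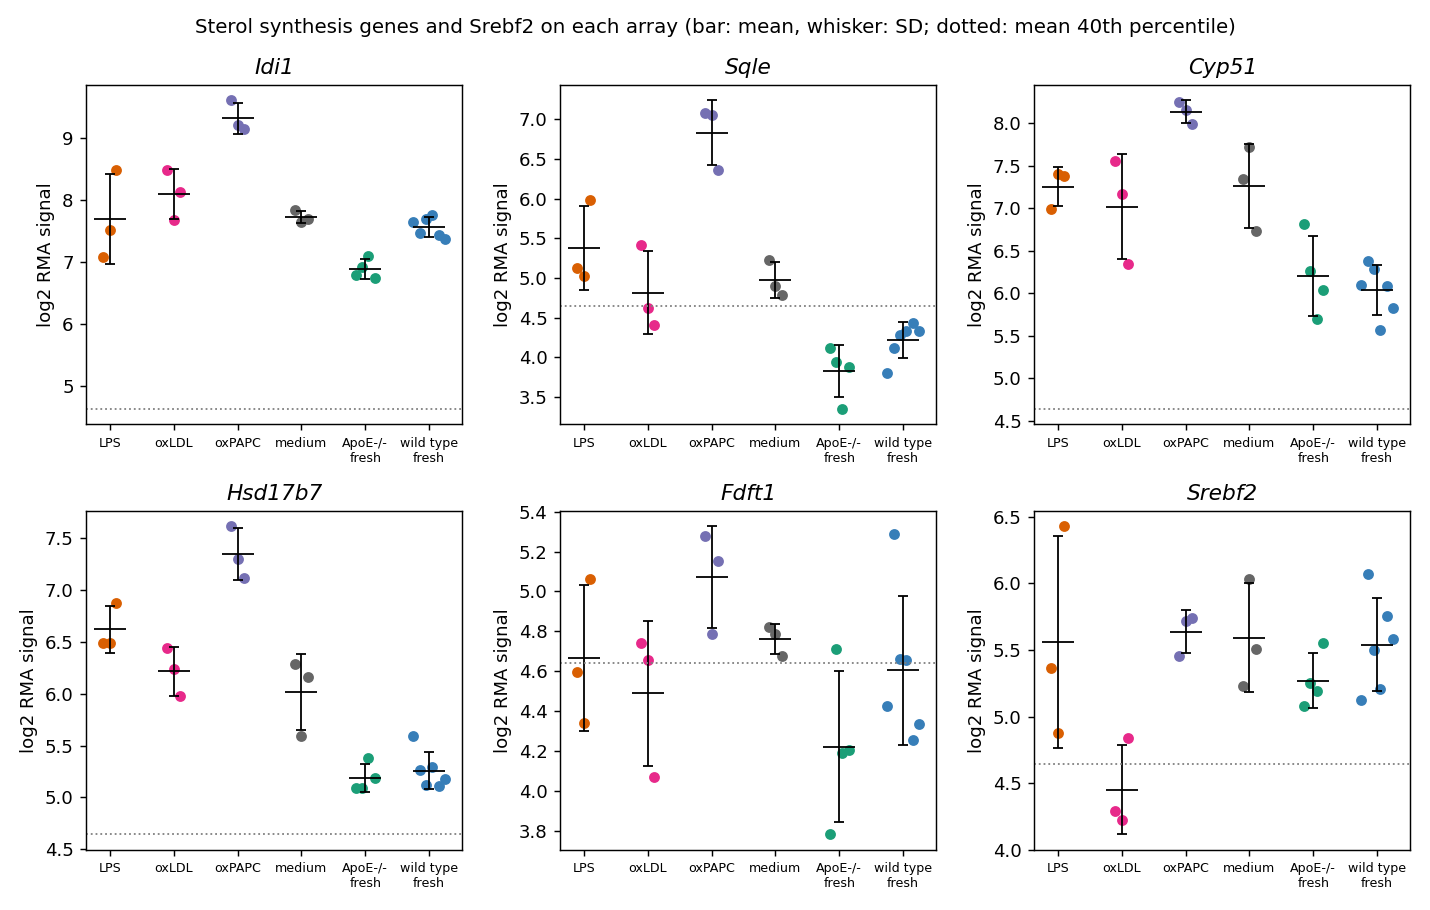
Log2 RMA signal of the 6 measured genes (vertical axes) on each of the 22 arrays, by group (horizontal axes). Points are arrays, bars are means, whiskers are SD, and the dotted line is the mean 40th percentile. The oxPAPC arrays lie highest for Idi1, Sqle, Cyp51 and Hsd17b7, and the oxLDL arrays lie lowest for Srebf2.

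The comparison of oxPAPC with medium asks what an oxidised phospholipid of the kind found in modified lipoproteins does to the intima. Transcripts of an isoprenoid, a squalene and a late sterol enzyme rose after oxPAPC, while that of the regulator gave a difference near 0. Sqle rose 3.63-fold (a log2 difference of 1.86 ± 0.31, SE, n = 3 arrays each), Idi1 3.02-fold (1.59 ± 0.31) and Hsd17b7 2.51-fold (1.33 ± 0.21), with limma adjusted p-values of 0.00322, 0.00586 and 0.0025. Cyp51 gave 0.87 ± 0.30 and missed the threshold of 0.05 (adjusted p = 0.0569 in limma, 95% interval 0.22 to 1.52), although all 3 oxPAPC arrays were above all 3 medium arrays. Fdft1 gave 0.31 ± 0.22 (adjusted p = 0.331, interval −0.17 to 0.79) and Srebf2 0.05 ± 0.34 (adjusted p = 0.935, interval −0.69 to 0.79).

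Of the 6 genes, 3 were called higher after oxPAPC and 0 lower, beside 8.34% of the 7550 genes tested called higher and 12.9% lower (21.3% in either direction). At an unadjusted limma p under 0.05 the set held 4, the fourth being Cyp51, beside 2750 of the 7550 genes tested. The median difference of the 6 genes was 1.10, that of all genes tested −0.05. The calls of Sqle, Idi1 and Hsd17b7 were kept with each of the 6 arrays left out in turn, and Cyp51 was called as well without medium replicate 10 (1.10, adjusted p = 0.0403 in limma).

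Second probe sets bore on these values. The other Idi1 probe set, 1451122_at, gave 1.37 ± 0.24 for oxPAPC against medium (adjusted p = 0.00625 in limma over all 22626 probe sets). For Cyp51, 1422534_at passed (1.14 ± 0.30, adjusted p = 0.0296) and 1422533_at did not (0.72 ± 0.28, adjusted p = 0.106). The dim second probe set of Hsd17b7, 1417871_at, averaged 3.83 with oxPAPC and 3.55 in medium and gave 0.28 ± 0.22 (adjusted p = 0.413). That of Srebf2, 1452174_at, gave −0.11 ± 0.14 (adjusted p = 0.641).

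Cell type markers moved with oxPAPC too. Of 13 smooth muscle markers 10 were called higher than in medium (median 1.04), and of 15 tested endothelial markers 9 were called lower (median −1.10). The endothelial mean was 7.53 to 8.08 with oxPAPC, against 8.46 to 8.62 in medium, and of 13 tested macrophage markers 8 were called lower. In such bulk samples fewer cells of a type and less RNA per cell cannot be told apart. With the smooth muscle mean of each array as a covariate, Sqle gave 1.35 (adjusted p = 0.285 in limma), Idi1 1.19 (adjusted p = 0.347) and Hsd17b7 0.96 (adjusted p = 0.27), and 0 of the 7550 genes were called at all. The standard error of Idi1 was then 0.54 in place of 0.31. Medium replicates 9 and 10 held the lowest smooth muscle means of all 22 arrays (7.87 and 8.26). Sqle was at 3.81 to 4.44 in fresh wild-type arrays whose smooth muscle means, 8.99 to 9.86, spanned those of the oxPAPC arrays. Those fresh arrays were not incubated, so they differ from the oxPAPC arrays in more than the stimulus. Sqle was already at 4.79 to 5.22 in medium, so the fresh arrays cannot show the part of smooth muscle in the oxPAPC rise. No medium array reached the smooth muscle mean of an oxPAPC array, so stimulus and smooth muscle signal cannot be told apart here. The part of cell composition in the oxPAPC differences was not tested. The plot of signal against smooth muscle markers gives both measures for each array.

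**Figure D2:**
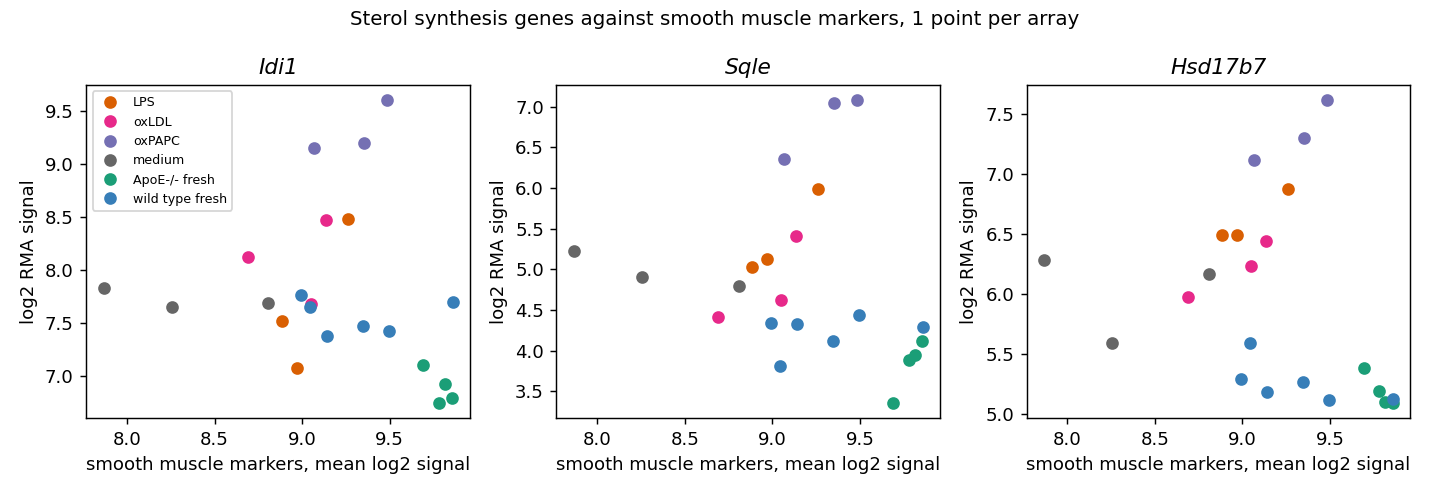
Log2 RMA signal of Idi1, Sqle and Hsd17b7 (vertical axes) against the mean log2 signal of 13 smooth muscle markers (horizontal axes), 1 point per array, coloured by group. The oxPAPC arrays lie above fresh arrays with like smooth muscle signal, which were not incubated. No medium array reaches the smooth muscle signal of an oxPAPC array, so stimulus and smooth muscle signal cannot be told apart.

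Other enzymes of the pathway were followed as a list of 16, of which 12 were on the array and 7 were tested in the incubated arrays. After oxPAPC 2 of the 7 rose and 0 fell, with a list median of 0.34. Msmo1, the methyl sterol oxygenase that acts next to Cyp51, measured 7.66, 6.71 and 7.34 with oxPAPC, against 5.92, 6.93 and 5.84 in medium (1.01 ± 0.32, adjusted p = 0.0448 in limma). The groups overlapped, and the call was lost with no level filter (1.01, 0.0608), without medium replicate 9 (0.85, adjusted p = 0.142) or 11 (0.81, 0.138) and without oxPAPC replicate 11 (0.79, 0.162) or 13 (0.96, 0.0809). Ggps1, which makes the isoprenoid used to anchor proteins in membranes, rose by 0.52 ± 0.13 (adjusted p = 0.0179), a call lost without medium replicate 9 (0.53, adjusted p = 0.0531) or 11 (0.46, 0.0598) and without oxPAPC replicate 12 (0.53, 0.0537).

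The control list (15 genes around SREBP2, 6 on the array, 5 tested) held 2 rises and 1 fall. Stard4, a sterol carrier that is itself an SREBP2 target, measured 7.41, 6.78 and 7.08 with oxPAPC, against 6.06, 6.16 and 5.83 in medium. The groups did not overlap, the difference was 1.07 ± 0.22 (adjusted p = 0.00763 in limma), and the call was kept with each of 6 arrays left out. Mbtps1, the protease that starts the release of SREBP2, rose by 1.05 ± 0.25 (adjusted p = 0.0139), a call lost without medium replicate 9 (0.97, adjusted p = 0.0531) or oxPAPC replicate 12 (0.90, 0.0621). With the mean of all its probe sets Mbtps1 gave 0.35 (adjusted p = 0.136). Insig2, which holds SREBP2 back, fell by 0.52 ± 0.16 on the log2 scale (adjusted p = 0.0422), and this call was lost without medium replicate 9 (−0.48, 0.122) or 11 (−0.44, 0.124) and oxPAPC replicate 11 (−0.44, 0.144) or 12 (−0.48, 0.125), as well as with cyclic loess (−0.45, 0.0557) and median centring (−0.47, 0.0576).

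In neighbouring lipid pathways, 1 of 9 tested genes of fatty acid synthesis rose after oxPAPC, namely Me1, the malic enzyme that supplies NADPH (0.70 ± 0.15, adjusted p = 0.00838 in limma, kept with each of 6 arrays left out). Of 6 tested genes of LXR response and cholesterol export 3 fell and 0 rose, with a list median of −0.86. Abcg1, a cholesterol exporter induced by LXR, fell by 1.32 ± 0.26 (adjusted p = 0.00701), and that call was kept with each of 6 arrays left out. Mylip, which tags the LDL receptor for breakdown and is also an LXR target, fell by 1.17 ± 0.30 (adjusted p = 0.0185), and Npc2, a sterol carrier of lysosomes, by 0.56 ± 0.13 (adjusted p = 0.0148). Mylip lost its call without medium replicate 9 (−1.11, 0.0625) or 11 (−1.12, 0.0531) or oxPAPC replicate 12 (−0.91, 0.0779), and Npc2 without oxPAPC replicate 11 (−0.48, 0.0626) or 12 (−0.55, 0.0518). With the smooth muscle covariate none of the pathway calls of this comparison was kept. The map of log2 differences over the pathway sets the comparisons side by side.

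**Figure D3:**
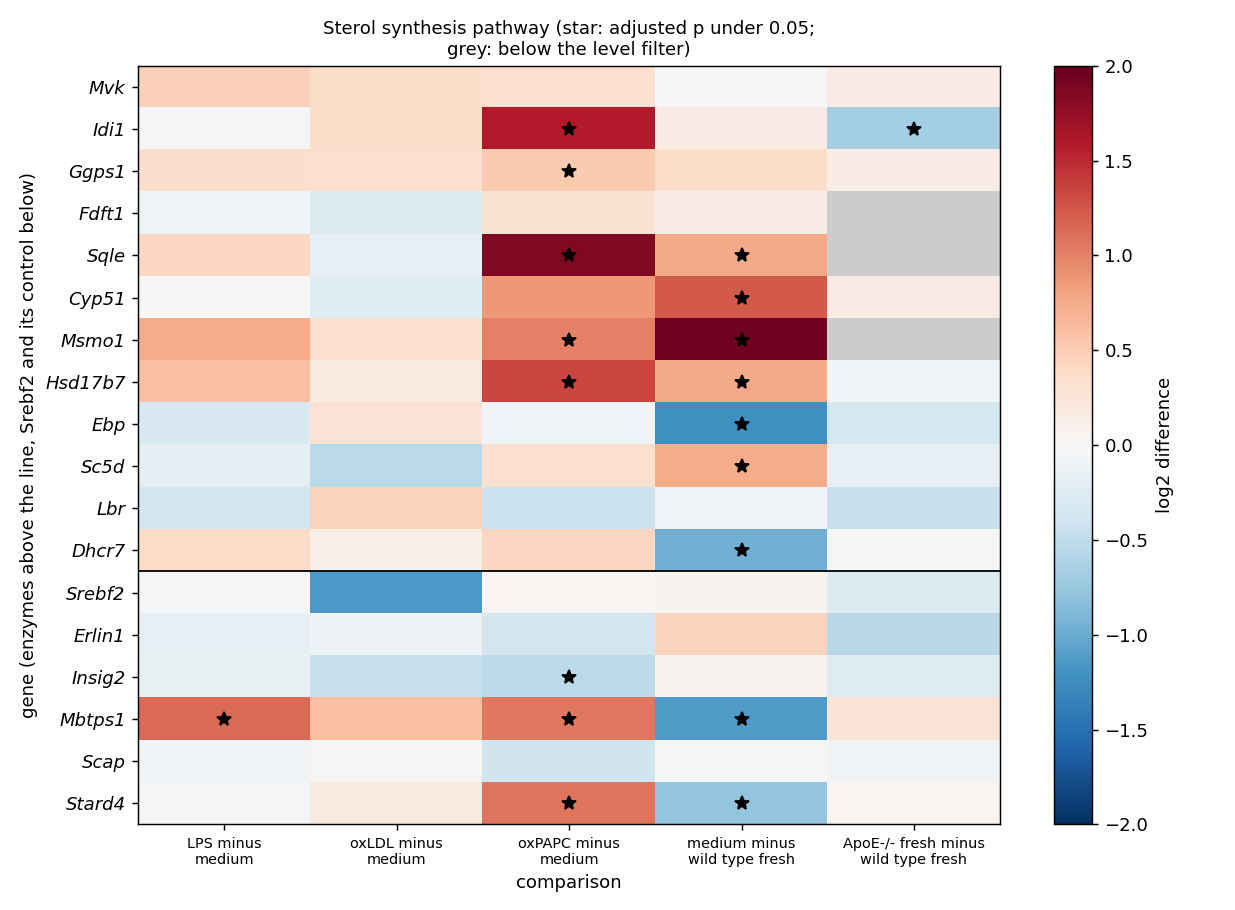
Log2 differences (colour, capped at 2 in either direction) of 12 sterol synthesis enzymes and of Srebf2 with 5 genes of its control (rows) in 5 comparisons (columns). Stars mark a limma adjusted p under 0.05 and grey marks genes below the level filter. In the oxPAPC column Idi1, Ggps1, Sqle, Msmo1, Hsd17b7, Mbtps1 and Stard4 are starred as higher and Insig2 as lower.

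The comparison of oxLDL with medium asks the same of a modified lipoprotein at the same mass dose. None of the 6 genes passed after oxLDL (0 higher and 0 lower by limma). Of all 7550 genes 0.742% were called higher and 2.07% lower (2.81% in either direction). At an unadjusted limma p under 0.05 stood 1 of the 6, beside 1635 of the 7550. Srebf2 gave the largest difference of the set, −1.14 ± 0.34 (adjusted p = 0.0877, 95% interval −1.88 to −0.40), with all 3 oxLDL arrays below all 3 medium arrays. Its dimmer second probe set, 1452174_at, averaged 4.33 with oxLDL and 4.49 in medium and gave −0.16 ± 0.14 (adjusted p = 0.565). Of the enzymes, Idi1 gave 0.37 ± 0.31 (adjusted p = 0.515), and the other 4 lay between −0.27 and 0.20 (adjusted p = 0.506 to 0.797). The intervals reached from −0.30 to 1.04 for Idi1 and from −0.84 to 0.52 for Sqle. The median of the 6 genes was −0.20, that of all genes 0.01.

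With all 22 arrays in 1 fit Srebf2 was called lower after oxLDL (−1.14, adjusted p = 0.0271 in limma), and so was Insig2 (−0.44, 0.0489). Of the 7 other enzymes tested none passed, the smallest p belonging to Lbr, a sterol reductase of the nuclear envelope (0.46, adjusted p = 0.124), and 4 had an unadjusted p under 0.05. Of the control list none of 5 passed either, with Insig2 at −0.44 (adjusted p = 0.147) and 2 at an unadjusted p under 0.05. Nor did any of 9 fatty acid synthesis genes (Fads1, a fatty acid desaturase, 0.63, adjusted p = 0.0523, 1 unadjusted) or any of 6 genes of the LXR list (Mylip, −0.69, adjusted p = 0.202, 1 unadjusted). Fads1 passed with no level filter (0.63, 0.0466), cyclic loess (0.67, 0.0433), median centring (0.67, 0.0418) and all 22 arrays (0.63, 0.0143). Smooth muscle markers had a median difference of 0.63 after oxLDL, with 0 of 13 called and 7 at an unadjusted limma p under 0.05. Called lower were 1 of 15 endothelial, 1 of 13 macrophage, 2 of 8 fibroblast and 1 of 6 red cell and platelet markers, and 0 were called higher. The part of these cell types in the oxLDL differences was not tested.

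The comparison of LPS with medium asks what an inflammatory stimulus does. None of the 6 genes passed after LPS (0 higher and 0 lower by limma). Of all 7550 genes 3.36% were called higher and 5.68% lower (9.05% in either direction). At an unadjusted limma p under 0.05 stood 1 of the 6, beside 2071 of the 7550. Hsd17b7 gave 0.60 ± 0.21 (adjusted p = 0.0895, 95% interval 0.14 to 1.07), with the LPS arrays all above the medium ones, and Sqle gave 0.41 ± 0.31 (adjusted p = 0.417, interval −0.27 to 1.09). The other 4 lay between −0.09 and −0.01. The median of the 6 genes was −0.02, that of all genes −0.03. LPS replicate 10 was the highest of its group for Srebf2, Idi1, Fdft1, Sqle and Hsd17b7, at 0.87, 0.79, 0.40, 0.60 and 0.26 above the group mean, and it also held the highest smooth muscle mean of its group.

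With all 22 arrays in 1 fit Hsd17b7 was called higher after LPS (0.60, adjusted p = 0.0326 in limma). Over all alternative runs its adjusted p reached 0.58. The dim second probe set of Hsd17b7, 1417871_at, gave 0.12 ± 0.22 (adjusted p = 0.774 in limma). Of the 7 other enzymes none passed, with Mvk, mevalonate kinase, nearest (0.47 ± 0.14, adjusted p = 0.0558) and 4 at an unadjusted p under 0.05. Mvk passed with no level filter (0.47, adjusted p = 0.0427), with cyclic loess (0.50, 0.0467) and with all 22 arrays (0.47, 0.0133). Of the control list 1 of 5 rose, Mbtps1 (1.14 ± 0.25, adjusted p = 0.0198), a call lost without medium replicate 9 (1.06, 0.0693) or 11 (1.00, 0.0626) and LPS replicate 3 (1.00, 0.0651) or 4 (1.13, 0.0581). Of 9 fatty acid synthesis genes 1 fell, Scd1, the stearoyl desaturase (−0.54 ± 0.15, adjusted p = 0.0466), and of 6 genes of the LXR list 2 fell, Abcg1 (−1.04 ± 0.26, adjusted p = 0.0341) and Mylip (−1.33 ± 0.30, adjusted p = 0.0214). Scd1 stayed called only without medium replicate 10, with adjusted p-values of 0.0908 to 0.145 without each other array, and lost its call with cyclic loess (−0.46, 0.0813) and median centring (−0.51, 0.0514). With the smooth muscle covariate none of these calls was kept (Mbtps1 1.40, 0.0733; Scd1 −0.74, 0.104; Abcg1 −0.87, 0.259; Mylip −1.65, 0.0764). With LPS, 3 of 13 smooth muscle markers were called higher than in medium (median 0.74), and 4 of 15 endothelial, 4 of 13 macrophage and 2 of 8 fibroblast markers lower, and their part in these differences was not tested. Abcg1 was lost without medium replicate 9 (−0.94, 0.109) or 11 (−0.91, 0.0982) and LPS replicate 3 (−1.15, 0.0573) or 10 (−0.75, 0.093), and Mylip without medium replicate 9 (−1.27, 0.0701) or 11 (−1.28, 0.0604) or LPS replicate 3 (−1.03, 0.0654). The 3 comparisons with medium share their 3 medium arrays, so their differences move together where a medium array is high or low. The plot of differences with 95% intervals shows the 6 genes in each of them.

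**Figure D4:**
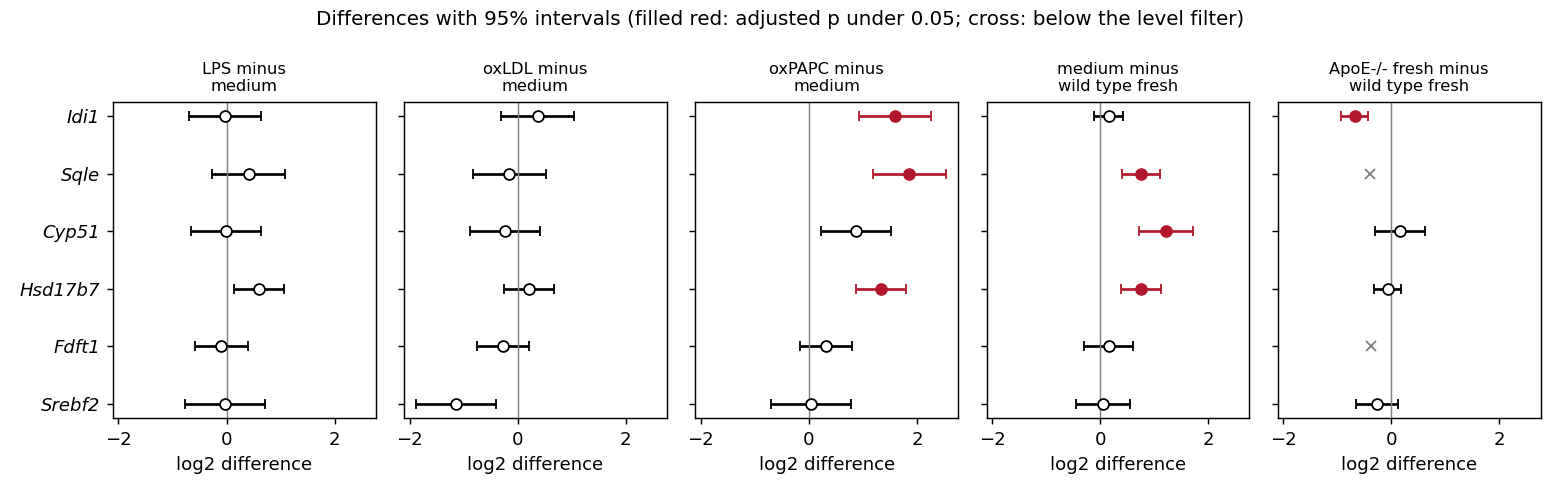
Log2 differences (horizontal axes) with 95% intervals of the 6 measured genes (rows) in 5 comparisons (panels). Filled red points passed a limma adjusted p under 0.05, open points did not, and crosses are values below the level filter. After oxPAPC Idi1, Sqle and Hsd17b7 are red and Srebf2 lies at 0.05.

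The stimuli were also set against each other within the fit of 12 incubated arrays, where smooth muscle markers differed less. Between oxLDL and oxPAPC at the same mass dose, 5 of the 6 genes were called lower with oxLDL and 0 higher, beside 4.57% of 7550 genes called lower and 7.8% higher (12.4% in either direction). Sqle gave −2.02 ± 0.31 (adjusted p = 0.00323 in limma, 4.05-fold lower with oxLDL) and Hsd17b7 −1.13 ± 0.21 (adjusted p = 0.00758), and both calls were kept with each of 6 arrays left out and with the smooth muscle covariate. Idi1 gave −1.23 ± 0.31 (adjusted p = 0.0241), Cyp51 −1.11 ± 0.30 (adjusted p = 0.0317) and Srebf2 −1.19 ± 0.34 (adjusted p = 0.0404). Fdft1 gave −0.58 ± 0.22 (adjusted p = 0.104). The oxLDL and oxPAPC arrays did not overlap for any of the 6 genes. With 3 against 3 arrays this is an exact permutation p of 0.1, the smallest that such groups allow. The share of all genes without overlap was not counted, so it is not known if the set stands out in this. At an unadjusted limma p under 0.05 stood all 6 genes, beside 2161 of the 7550. The median of the 6 was −1.16, that of all genes 0.04, and 0 of 13 smooth muscle markers were called (median −0.36), against 6 of 15 endothelial markers higher with oxLDL.

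Single arrays decided part of these calls. Srebf2 lost its call between oxLDL and oxPAPC with any of the 6 arrays left out (oxLDL replicates 14, 15 and 16 and oxPAPC replicates 11, 12 and 13, −1.38 to −1.07, adjusted p = 0.0555 to 0.121 in limma), and its second probe set gave −0.05 ± 0.14 (adjusted p = 0.885). Idi1 lost its call without oxLDL replicate 15 (−1.02, 0.0802) or 16 (−1.24, 0.0667) and oxPAPC replicate 11 (−1.08, 0.0912) or 12 (−1.28, 0.0652). Cyp51 lost its call without oxLDL replicate 15 (−1.18, 0.0571) or 16 (−0.77, 0.109) and oxPAPC replicate 11 (−1.05, 0.0982) or 12 (−1.10, 0.0979). The second probe set of Idi1 gave −1.14 ± 0.24 (adjusted p = 0.0173) and 1422534_at of Cyp51 −1.37 ± 0.30 (adjusted p = 0.0202). Not called were 1422533_at of Cyp51 (−0.48 ± 0.28, adjusted p = 0.349 in limma) and the dim 1417871_at of Hsd17b7 (−0.24 ± 0.22, adjusted p = 0.599).

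Between LPS and oxPAPC 2 of the 6 genes were called lower with LPS and 0 higher, beside 3.96% of 7550 genes called lower and 4.69% higher (8.65% in either direction). Idi1 gave −1.62 ± 0.31 (adjusted p = 0.00854 in limma), kept with each of 6 arrays left out, and Sqle −1.45 ± 0.31 (adjusted p = 0.0156). Sqle lost its call without LPS replicate 3 (−1.33, 0.0613) or 4 (−1.27, 0.0731) and oxPAPC replicate 11 (−1.33, 0.0688) or 12 (−1.34, 0.069). Hsd17b7 gave −0.72 ± 0.21 (adjusted p = 0.0554) and was called without LPS replicate 10 (−0.85, 0.0427) or oxPAPC replicate 13 (−0.84, 0.0335). Cyp51 gave −0.88 ± 0.30 (adjusted p = 0.0901), Fdft1 −0.40 ± 0.22 (adjusted p = 0.274) and Srebf2 −0.08 ± 0.34 (adjusted p = 0.906). The median of the 6 was −0.80, that of all genes 0.01, and 0 of 13 smooth muscle markers were called. Of 15 endothelial markers 4 were called higher with LPS and 1 lower (median 0.45, 9 at an unadjusted p under 0.05). Of all 7550 genes 1906 had an unadjusted limma p under 0.05. The LPS and oxPAPC arrays did not overlap for 4 of the 6 genes (Idi1, Sqle, Cyp51 and Hsd17b7). The share of all genes without overlap was not counted here either, so it is not known if the set stands out. Both comparisons use the same 3 oxPAPC arrays.

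Between LPS and oxLDL none of the 6 genes passed (0 by limma). Of all 7550 genes 2.21% were called higher with LPS and 2.86% lower (5.07% in either direction). At an unadjusted limma p under 0.05 stood 1 of the 6, beside 1625 of the 7550. Srebf2 gave 1.11 ± 0.34 (adjusted p = 0.0826, 95% interval 0.37 to 1.85) and was called with all 22 arrays in 1 fit (1.11, adjusted p = 0.028). Its second probe set gave 0.01 ± 0.14 (adjusted p = 0.976 in limma), and 1 of 3 oxLDL arrays had Srebf2 above the 40th percentile. Hsd17b7 gave 0.40 ± 0.21 (adjusted p = 0.302). The other 4 lay between −0.40 and 0.57.

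In the pathway lists, Stard4 was lower with LPS than with oxPAPC (−1.11 ± 0.22, adjusted p = 0.0107 in limma) and lower with oxLDL than with oxPAPC (−0.90 ± 0.22, adjusted p = 0.0213). The first call was lost without oxPAPC replicate 11 (−0.95, 0.0508), the second without oxLDL replicate 15 (−0.66, 0.0628) or oxPAPC replicate 11 (−0.74, 0.0857) and with the mean of its probe sets (−0.65, 0.0874). Lbr was higher with oxLDL than with oxPAPC (0.90 ± 0.16, adjusted p = 0.00626, kept with each of 6 arrays left out) and lower with LPS than with oxLDL (−0.84 ± 0.16, adjusted p = 0.0137). The LPS difference of Lbr was lost without LPS replicate 4 (−0.83, 0.0506) or oxLDL replicate 16 (−0.80, 0.052). Sc5d, a late desaturase of sterol synthesis, was lower with oxLDL than with oxPAPC (−0.85 ± 0.22, adjusted p = 0.028), lost without oxLDL replicate 15 (−0.81, 0.075) or 16 (−0.72, 0.106) and oxPAPC replicate 11 (−0.90, 0.0679) or 12 (−0.84, 0.089). Between LPS and oxPAPC none of the 7 other enzymes passed (0 by limma, 1 at an unadjusted p under 0.05), with Sc5d nearest (−0.51, adjusted p = 0.175; with the mean of its probe sets −0.68, 0.0438).

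In the neighbouring lists, Me1 was lower with LPS than with oxPAPC (−0.75, adjusted p = 0.0101 in limma) and with oxLDL than with oxPAPC (−0.57, 0.0273), the only call among 9 fatty acid synthesis genes in either comparison. The oxLDL call of Me1 was kept without oxLDL replicate 15 alone of the 6 arrays (0.0506 to 0.0804 without each other array). Abcg1 was higher with oxLDL than with oxPAPC (1.39 ± 0.26, adjusted p = 0.00761, kept with each of 6 arrays left out), as was Npc2 (0.56 ± 0.13, 0.0188), the only calls among 6 genes of the LXR list. Npc2 lost its call without oxLDL replicate 15 (0.52, 0.058) or 16 (0.59, 0.0513) and oxPAPC replicate 11 (0.49, 0.0764) or 12 (0.56, 0.068). With LPS than with oxLDL, Scd1 (−0.75, 0.0194), Fads1 (−0.72, 0.0237) and Abcg1 (−1.11, 0.0329) were lower. Single arrays decided these 3 calls, with adjusted p-values up to 0.0663, 0.0861 and 0.106 when 1 was left out. Scd1 and Fads1 each kept their call in 2 of these 6 runs, and Abcg1 in 0. With the mean of its probe sets Scd1 gave −0.49 (adjusted p = 0.182 in limma). Among 6 genes of the LXR list none passed between LPS and oxPAPC (0 by limma, 1 unadjusted), with Ch25h at 1.48 (adjusted p = 0.192) and, without oxPAPC replicate 13, at 2.51 (0.00175).

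The comparison of medium with fresh wild-type intima sets aortas kept for 4 h without any stimulus against intima taken fresh. Cyp51 and Hsd17b7, which act on lanosterol and later sterols, rose in medium, and Idi1, Fdft1 and Srebf2 did not pass. Cyp51 rose 2.33-fold (1.22 ± 0.23, SE, n = 3 against 6, adjusted p = 0.000928 in limma) and Hsd17b7 1.69-fold (0.75 ± 0.17, adjusted p = 0.00268). Sqle was called higher by 0.75 ± 0.16 on the log2 scale (adjusted p = 0.00184). Idi1 gave 0.16 ± 0.12 (adjusted p = 0.279), Fdft1 0.16 ± 0.20 (adjusted p = 0.525) and Srebf2 0.05 ± 0.23 (adjusted p = 0.858). Of the 6 genes 3 were called higher and 0 lower, beside 24.3% of 7508 genes called higher and 34.4% lower (58.7% in either direction), so a call was common here. Sqle passed the level filter through the 3 medium arrays alone and had to differ, and its fold rests on fresh values near background.

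The calls of Cyp51 and Hsd17b7 were kept with each of 9 arrays left out. Medium and fresh wild-type arrays did not overlap for either gene, but the share of all genes without overlap was not counted. For Hsd17b7 the lowest medium array (5.594) barely exceeded the highest fresh wild-type array (5.588). Of the other Cyp51 probe sets, 1422533_at gave 0.68 ± 0.10 (adjusted p = 0.000428 in limma), at dim means of 4.20 in medium and 3.52 in fresh wild-type intima. The brighter 1422534_at gave 0.41 ± 0.22 and did not pass (adjusted p = 0.173 in limma). Nor did the second Hsd17b7 probe set, 1417871_at (0.30 ± 0.12, adjusted p = 0.0803). With the smooth muscle covariate Cyp51 kept its call (1.22, adjusted p = 0.0499), while Sqle (0.68, adjusted p = 0.0992) and Hsd17b7 (0.54, adjusted p = 0.19) did not. Of 13 smooth muscle markers 11 were called lower in medium than in fresh wild-type intima, and of 10 tested macrophage markers 9 higher, their mean being 5.90 to 6.08 in medium and 4.60 to 5.18 in fresh wild-type intima. The part of these cell types in the difference was not tested. Handling, time in culture, serum and mouse age, which is not given for the medium arrays, cannot be told apart. The sources do not say whether fresh and incubated arrays were normalized together, and the median signal of an array was 5.25 to 5.31 in medium and 5.35 to 5.37 in fresh wild-type intima.

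Among the 7 other enzymes tested 2 were called higher and 2 lower in medium relative to fresh wild-type intima. Msmo1 measured 5.92, 6.93 and 5.84 in medium, against 3.93 to 4.63 in fresh wild-type intima (1.95 ± 0.23, adjusted p = 4.87e-05 in limma). Like Sqle it passed the level filter through the 3 medium arrays alone, so it had to differ and its size rests on fresh values near background. Sc5d rose by 0.74 ± 0.26 (adjusted p = 0.0325). Ebp, the sterol isomerase, fell by 1.23 ± 0.19 (adjusted p = 0.000242), and Dhcr7, the last reductase of the pathway, by 0.96 ± 0.23 (adjusted p = 0.00433), with 1 of 3 medium arrays above the 40th percentile. The Sc5d call was lost without medium replicate 9 (0.66, 0.109) or 10 (0.60, 0.128), without wild-type replicate 7 (0.68, 0.0599), 8 (0.65, 0.0574), 12 (0.70, 0.0556) or 13 (0.71, 0.0558), and with the mean of its probe sets (0.19, adjusted p = 0.536).

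Of the 5 control genes 0 rose and 2 fell, Mbtps1 (−1.13 ± 0.28, adjusted p = 0.00531 in limma) and Stard4 (−0.79 ± 0.13, adjusted p = 0.000386). Stard4 measured 6.06, 6.16 and 5.83 in medium, against 6.54 to 7.01 in fresh wild-type intima. Of 9 tested fatty acid synthesis genes 6 fell and 0 rose. Among them Gpam, which starts glycerolipid assembly, fell by 1.43 ± 0.21 (adjusted p = 0.000204), Fads1 by 1.01 ± 0.13 (adjusted p = 7.93e-05) and Elovl5, a fatty acid elongase, by 0.68 ± 0.11 (adjusted p = 0.000331). The other 3 were Fads2, Acly and Scd1 (−0.75 to −0.37). Acly was lost without medium replicate 9 (−0.37, 0.104), Fads2 without medium replicate 9 (−0.58, 0.0958) or 11 (−0.68, 0.0661), and Scd1 without 7 of 9 arrays, with adjusted p-values up to 0.209. With median centring Acly (−0.37, 0.0519) and Scd1 (−0.28, 0.106) did not pass. Of 6 genes of the LXR list Ch25h, which makes an oxysterol that restrains SREBP2, measured 8.42 to 8.72 in medium, against 3.93 to 4.62 in fresh wild-type intima. It was called higher (adjusted p = 4.99e-08) but passed the level filter through the medium arrays alone, and its fresh values were all below the 40th percentile. Abcg1, at a mean of 8.16 in medium and 6.66 in fresh wild-type intima, also rose (adjusted p = 0.000452 in limma), while Npc2 fell by 0.39 ± 0.10 (adjusted p = 0.00796). With the smooth muscle covariate 7 of these pathway genes lost their call, namely Dhcr7 (−0.96, 0.112), Sc5d (0.35, 0.59), Mbtps1 (−1.36, 0.0657), Fads2 (−0.62, 0.3), Acly (−0.56, 0.149), Scd1 (−0.35, 0.345) and Npc2 (−0.39, 0.149).

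The fresh comparison sets ApoE-/- against wild-type intima before lesions form. Idi1 was lower in ApoE-/- intima (−0.67 ± 0.11, SE, n = 4 against 6, adjusted p = 0.0417 in limma, 1.60-fold lower), and an exact permutation test gave p = 0.00476, the smallest that 4 against 6 arrays allow. Srebf2 gave −0.27 ± 0.18 (adjusted p = 0.447, 95% interval −0.66 to 0.12), Cyp51 0.16 ± 0.21 (adjusted p = 0.717, interval −0.30 to 0.63) and Hsd17b7 −0.07 ± 0.11 (adjusted p = 0.776, interval −0.32 to 0.18). Sqle and Fdft1 were below the level filter and differed by −0.40 (exact two-sided permutation p = 0.0476, n = 4 and 6, unadjusted) and −0.38 (exact p = 0.148). Of the 4 genes tested 0 were called higher and 1 lower, beside 0.138% of 7264 genes called higher and 0.289% lower (0.427% in either direction). At an unadjusted limma p under 0.05 stood 1 of the 4, beside 1328 of the 7264. The median of the 4 was −0.17 and that of all genes −0.02.

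The Idi1 call was near the threshold. It was lost in limma without ApoE-/- replicate 3 (adjusted p = 0.133), 4 (0.0903), 5 (0.0689) or 6 (0.105) and without wild-type replicate 7 (0.0951), 8 (0.0699) or 13 (0.0861), while the difference stayed between −0.75 and −0.63. With the smooth muscle covariate it was −0.64 (adjusted p = 0.338), and smooth muscle markers had a median difference of 0.48 in ApoE-/- intima with 0 of 13 called and 9 at an unadjusted p under 0.05. Of 6 red cell and platelet markers 1 was called lower in ApoE-/- intima, and their mean was 7.01 to 7.33 in ApoE-/- and 7.29 to 8.51 in wild-type intima. The part of these cell types in the Idi1 difference was not tested. The second Idi1 probe set gave −0.46 ± 0.12 (adjusted p = 0.115), with a mean of 6.79 in ApoE-/- intima and 7.25 in wild-type intima. Srebf2 and Cyp51 changed sign between their probe sets, at 0.20 for the second of Srebf2 and −0.14 and −0.16 for the others of Cyp51, none of which passed.

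None of the 6 other enzymes tested passed in ApoE-/- intima (0 by limma, 1 at an unadjusted p under 0.05), with Lbr nearest (−0.44 ± 0.15, adjusted p = 0.155). None of 5 control genes passed (Insig2, −0.26, adjusted p = 0.174, 2 unadjusted) and none of 9 fatty acid synthesis genes (Fads2, 0.75, adjusted p = 0.178, 2 unadjusted). Of 5 tested genes of the LXR list 1 rose, Abcg1 (1.32 ± 0.21, adjusted p = 0.0393), which averaged 7.98 in ApoE-/- and 6.66 in wild-type intima. This call was lost without each ApoE-/- array (replicates 3 to 6, adjusted p = 0.0689 to 0.0941) and without wild-type replicate 7 (0.0541), 8 (0.0699) or 13 (0.0783), at differences of 1.19 to 1.43. It was also lost with no level filter (1.32, 0.052) and with the smooth muscle covariate (1.23, 0.338).

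Correlations among the 6 genes differed before and after the group means were removed. Over the 22 arrays, which share the group structure, Pearson correlations were 0.91 for Sqle with Hsd17b7, 0.88 for Idi1 with Sqle and 0.88 for Sqle with Cyp51, and 0.01 to 0.39 for Srebf2 with each enzyme. After each group's mean was removed, Sqle with Hsd17b7 stood at 0.29, Idi1 with Sqle at 0.51, Idi1 with Hsd17b7 at 0.55 and Cyp51 with Hsd17b7 at −0.02, while Srebf2 stood at 0.32 with Fdft1 and 0.28 with Idi1, and the 15 pairs ranged from −0.23 to 0.55. These are descriptions over arrays of 6 groups and carry no test.

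The genes most like the set were sought among 7935 genes by Pearson correlation with the mean of the 6 genes' centred values. Over 22 arrays the nearest were Rnf2 (0.93), Cpeb4 (0.92), Rbbp7 (0.92), Rnf115 (0.91), Kif2a (0.91), Cul3 (0.91), Arc (0.90) and Arf4 (0.89). Over the 12 incubated arrays they were Pcna (0.96), Tmcc3 (0.96), Gem (0.96), Rnf2 (0.94), Eml6 (0.93), Homer1 (0.93), Rnf115 (0.93) and Nudt4 (0.92). Rnf2 and Rnf115, neither of them an enzyme of sterol synthesis, stood in both lists. None of the other sterol synthesis enzymes followed here stood in either list, and the 6 genes themselves were left out of the search. By single gene over 22 arrays, the nearest was Cttnbp2nl for Hsd17b7 (0.95), Rnf2 for Sqle (0.94), Cul3 for Cyp51 (0.92), Hnrnpa2b1 for Idi1 (0.89), Hmgn5 for Fdft1 (0.72) and S100a11 for Srebf2 (0.71).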

How the data were processed

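The deposited values are log2 signals, computed by the authors with RMA (affy), per the submitters' processing notes; no version is named there and the genome build is not given in the sources used here. RNA of high integrity was amplified and labelled with biotin, per the labels. RMA makes the distributions of arrays alike, which can hide a general shift, and the sources do not say if the arrays were processed in 1 run. Precision is limited by the number of arrays.

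Probe sets took their genes from the platform annotation, updated through a RefSeq table (GRCm38.p6, names and promoter windows only). Of 22626 probe sets 18003 had 1 symbol, 287 several and 4336 none. A gene was tested if its signal exceeded the array's 40th percentile on no fewer arrays than the smaller group holds. Tests were run with limma 3.58.1 in R 4.3.3 (lmFit, eBayes, two-sided, Benjamini-Hochberg over all genes tested, called at an adjusted p under 0.05) on 10 fresh arrays, on 12 incubated arrays with 1 shared spread, or on 9 arrays for medium against fresh wild type. Every ± is a standard error unless SD is written. The tests were tried on simulated data.

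Members, pathway lists (54 genes, 37 on the array), marker lists and tests were chosen with earlier results of these data known. Named genes are the members, called genes of each list or its smallest p, and the nearest genes by correlation. Alternatives were no level filter, cyclic loess, median centring, all 22 arrays, the mean of all probe sets, smooth muscle markers as a covariate, and leaving out each array.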

Additional observations from a re-analysis of the deposited data

Results flagged for a closer look

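Hsd17b7 in fresh wild-type intima had 1 array apart from the rest: replicate 7 measured 5.59 on the log2 scale, and the next highest of the 6 arrays 5.29. Its gap to that array was 0.628 of the group's range, just above Dixon's 95% critical value for a group of this size. Such gaps were looked for in 12 groups of values, and chance gives about 1 in 20. Without this array Hsd17b7 remained called higher in medium and uncalled in ApoE-/- intima by limma.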

How the results depend on the processing

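None of the 14 called differences of the 6 genes, among 46 tested, changed sign under any alternative run. Leaving out single arrays (310 values) kept 72 calls, lost 25 and gained 3. No level filter lost 2, all 22 arrays lost 1 and gained 5, the mean of all probe sets lost 1 and gained 2, cyclic loess gained 1, median centring changed none, and the smooth muscle covariate kept 5 and lost 9.

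The number of the 6 genes called was, in ApoE-/- against wild-type intima, 0 with no level filter, with all 22 arrays and with the covariate (1 as reported, 0 to 1 with arrays left out). For medium against fresh wild type it was 1 with the covariate (3 as reported, 3 with any array left out), for oxPAPC against medium 0 with the covariate (3, and 3 to 4), for oxLDL against oxPAPC 2 with the covariate (5, and 2 to 4), and for LPS against oxPAPC 1 to 3 with arrays left out (2 as reported). With all 22 arrays it was 1 for LPS against medium, 1 for oxLDL against medium and 1 for LPS against oxLDL (0 as reported in each, and 0 with any array left out). Cyp51 after oxPAPC passed with cyclic loess (0.97, adjusted p = 0.0432), all 22 arrays (0.87, 0.0369) and the mean of its probe sets (0.91, 0.016). Cyp51 between LPS and oxPAPC passed with the mean of its probe sets (−0.95, 0.0205), and Hsd17b7 with all 22 arrays (−0.72, 0.0133). Srebf2 between oxLDL and oxPAPC was lost with no level filter (−1.19, 0.0612), the mean of its probe sets (−0.62, 0.0523) and the covariate (−1.09, 0.117). Idi1 in ApoE-/- intima was lost with no level filter (−0.67, 0.052) and all 22 arrays (−0.67, 0.0948). Under the covariate Idi1 (−1.09, 0.0852) and Cyp51 (−1.09, 0.0858) lost their calls between oxLDL and oxPAPC.

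Over all genes, the 31 called in ApoE-/- intima became 6 with no level filter, 94 with all 22 arrays, 1 with the covariate and 1 to 68 with arrays left out. The 4410 of medium became 2227 with the covariate. The 683 of LPS became 1098 with all 22 arrays, 97 with the covariate and 236 to 374 with arrays left out, the 212 of oxLDL 554, 10 and 23 to 269, and the 1606 of oxPAPC 0 with the covariate and 735 to 1999 with arrays left out. LPS against oxLDL had 662 with all 22 arrays and 133 to 266 with arrays left out (383 as reported), LPS against oxPAPC 378 with the covariate and 244 to 1206 with arrays left out (653), and oxLDL against oxPAPC 431 and 348 to 1370 (934). For oxLDL against medium, 56 were higher and 156 lower as reported, and 92 and 135 with median centring. The cause was not tested in any of these.

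No paired analysis was possible because the groups compared share fewer than 2 replicate numbers. In simulated data for oxPAPC against medium, with 3 arrays a group, limma recovered 12.5% of log2 differences of 0.5. It recovered 62.5% of those of 1 and 93.1% of those of 2. The simulation changed 64, 64 and 72 genes at these sizes among 7550, while 1606 were called in the real comparison. Recovery there may differ, because the adjusted p depends on how many genes change. The printed intervals, unlike the calls, are not adjusted for the number of genes tested. Cyp51 after oxPAPC, at 0.87 with an interval of 0.22 to 1.52, was therefore not called (adjusted p = 0.0569 in limma). Values near the 40th percentile (Fdft1, Sqle in fresh arrays, Srebf2 with oxLDL) lie close to background.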
